A study of Mus musculus with 12 samples.

Results

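Bulk RNA-seq of mouse liver was used to describe the genotype difference that chow-fed and HFCF-fed mice had in common. All 12 of the 12 libraries of the series entered the comparison, 6 labelled HuRHep-/- and 6 labelled WT, with diet as a block and no interaction term. Both genotypes were represented by 3 chow livers and 3 HFCF livers, and each liver gave 1 library. HFCF is a diet with 40 kcal% fat, 20 kcal% fructose and 2% cholesterol, fed for 16 weeks. Per the labels, all 12 mice were males of a C57BL/6N background, carrying floxed Elavl1, and were 4 to 6 months old when injected with virus. The mice labelled HuRHep-/- received AAV8-Tbg-Cre, a virus that expresses Cre from the thyroxine-binding globulin promoter of hepatocytes, and those labelled WT received AAV8-Tbg-null. Cells other than hepatocytes are therefore not targeted and remain in the tissue that was sequenced. The methods of the study instead describe an albumin-Cre cross, with ages of 8 to 10 weeks, and the counts do not show which description holds. The 2 diets were deposited as separate tables, so diet and table cannot be told apart, but the genotypes were compared within each of them.

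HuR, encoded by Elavl1, is a ubiquitous RNA-binding protein of the ELAV family. It binds U-rich and AU-rich stretches, mostly in introns and in 3′ untranslated regions (3′ UTRs), and is known for stabilizing transcripts that would otherwise be degraded quickly and for influencing splicing. In hepatocytes it has been studied as a regulator of lipid transport, of the response to injury and of the mature hepatocyte program. AU-rich sites of the kind it recognizes are often described by the pentamer ATTTA and by the stricter nonamer TTATTTATT, in DNA letters.

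Among the called genes named below, such a nonamer occurs in the annotated 3′ UTR of both raised and lowered transcripts. The first nonamer of 5 of them, with 8 bases on either side, is shown to make the sites concrete, with the nonamer in capitals. They are the 5 with the smallest p-values among the named genes with a nonamer and at least 100 normalized counts on average, and they were chosen with their values known. Sequences are from GENCODE transcripts of GRCm38, 5′ to 3′ on the transcript strand.
Elavl1: catgaaaaTTATTTATTtatttatt
Lpl: ctttcaatTTATTTATTagctgtaa
Mief1: atccaaatTTATTTATTtatttatt
Gstt2: aaaaatatTTATTTATTtatttatt
Txnrd1: gttcagttTTATTTATTtatttttt
The Elavl1 site lies at chr8:4285790-4285814 on the minus strand, in a 3′ UTR of 4218 bases that holds 8 nonamers and 17 pentamers, overlaps counted. The Lpl site is at chr8:68906673-68906697 (plus strand), the Mief1 site at chr15:80252627-80252651 (plus strand), the Gstt2 site at chr10:75831797-75831821 (minus strand) and the Txnrd1 site at chr10:82897448-82897472 (plus strand). Of these genes, Elavl1, Lpl and Gstt2 were higher and Mief1 and Txnrd1 lower in the livers labelled HuRHep-/-. A match describes these letters and is no measured binding.

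The targeted gene was examined first. Elavl1 lies on chromosome 8 of GRCm38 (4285382 to 4325413). The normalized counts of Elavl1, brought to a common library size with TMM factors (trimmed mean of M-values), were 1050, 996 and 1054 in chow livers labelled WT and 1454, 1332 and 1320 in chow livers labelled HuRHep-/-. In HFCF livers they were 811, 821 and 917 (labelled WT) and 1102, 1095 and 1164 (labelled HuRHep-/-). Every liver labelled HuRHep-/- was above every WT liver of its diet. Over both diets the log2 difference was 0.40 (standard error 0.047, adjusted p = 0.00025, limma), and it was 0.40 in chow and 0.38 in HFCF. A two-sided exact permutation test over the 400 relabelings of genotype within diets gave p = 0.005, the smallest that it can give. The transcript of the deleted gene was thus higher in the livers labelled HuRHep-/-, contrary to the label. A deleted exon cannot be told from the others because reads were counted over all exons together, and every direction below rests on the labels.

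Of 20093 genes in both tables, 14535 passed the filter on low counts and were tested, from libraries of 30071731 to 35949203 counts. Within each group no library was a copy of another. In a principal component analysis the first component, with 46.2% of the variance, mostly separated the diets, with HFCF WT replicate 2 closest to the chow livers. The second, with 12.9%, was positive for all 6 libraries labelled WT and negative for all 6 labelled HuRHep-/-. At an adjusted p of at most 0.05, 2553 genes (17.6%) differed by genotype over both diets, 1196 higher (8.23%) and 1357 lower (9.34%) in the livers labelled HuRHep-/-. The median log2 difference of all tested genes was 0.0151. When libraries were scaled by their totals alone this median moved to 0.125 and the calls became 2703 higher and 617 lower, so small differences are relative to the scaling. Differentially expressed genes (DEGs), which in addition changed at least 1.5-fold and had at least 10 counts over each genotype, numbered 742 (5.1%), with 484 higher (3.33%) and 258 lower (1.78%). Their median change was 1.93-fold among those higher and 1.76-fold among those lower. Of the 742, 463 had values that did not overlap between genotypes in either diet, 285 higher and 178 lower, and the same held for 1636 of all tested genes (11.3%), these DEGs included. When the null hypothesis itself was a change of up to 1.5-fold, which is stricter, 27 genes were called, 19 higher and 8 lower.

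The chow and HFCF comparisons use different mice and different controls, so one can be set against the other. In the chow livers alone 557 genes were called, and 502 of these (90.1%) had the same sign in HFCF. In the HFCF livers alone 958 were called, of which 815 (85.1%) had the same sign in chow. Over all tested genes the sign was shared by 63.9%, and the correlation of the log2 differences across genes was r = 0.344, where the genes of a diet share its 6 libraries. Called in both diets separately were 187 genes, 185 of them in the same direction. No gene had an interaction of genotype and diet at an adjusted p of at most 0.05 by limma, with 2083 genes under an unadjusted p of 0.05 and a smallest adjusted p of 0.0616. The same test with voom weights called 1 gene (Cap2). Without HFCF WT replicate 3 it called 41, without chow WT replicate 2 it called 2, and without chow HuRHep-/- replicate 3 it called 1. A missed threshold with 3 livers a group does not show equal effects in the diets.

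**Figure D1:**
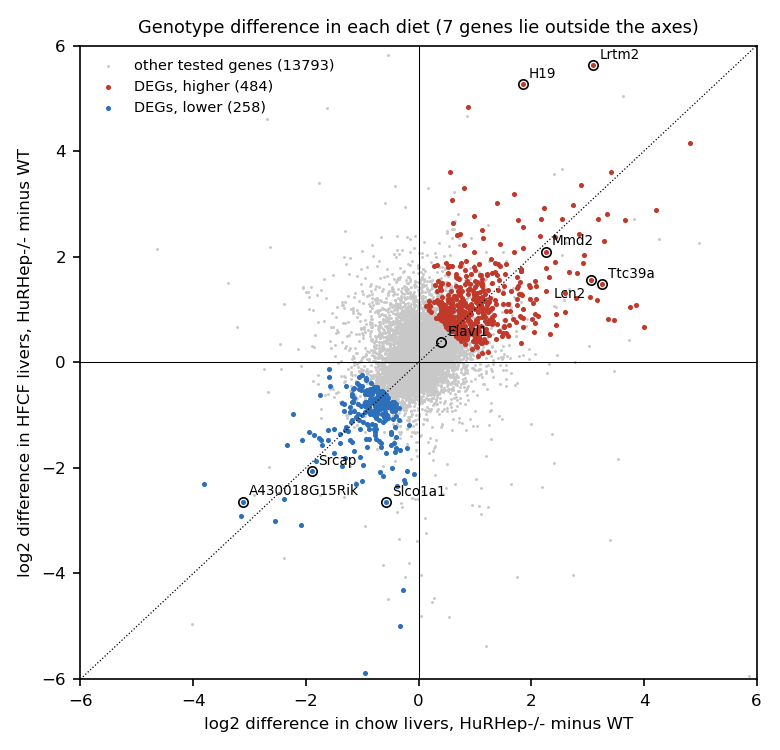
Log2 difference between livers labelled HuRHep-/- and WT in chow (x axis) and in HFCF (y axis), 1 point per tested gene, with the dotted line marking equal differences. The 484 DEGs that were higher (red) fill the upper right and the 258 that were lower (blue) the lower left, while Lrtm2 and H19 lie above the dotted line and Ttc39a and Lcn2 below it.

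The genes that separated the genotypes most sharply for their spread were mostly lower in the livers labelled HuRHep-/- and differed by about the same amount in each diet. The smallest p-value belonged to Tmem250-ps, a noncoding transcript of chromosome 2 (26136814 to 26140521). Its normalized counts were 2438, 2292 and 2212 in chow WT livers and 928, 779 and 749 in chow livers labelled HuRHep-/-, and in HFCF 2210, 2787 and 2575 against 817, 783 and 709. The groups lay far apart in both diets, with a fall of 3.04-fold (log2 difference -1.61, standard error 0.076, adjusted p = 3.8e-07, limma). Ptgr2, a prostaglandin reductase that inactivates 15-keto prostaglandins, had 2247, 2233 and 2213 against 826, 959 and 968 normalized counts in chow and 2071, 2475 and 2136 against 851, 996 and 1051 in HFCF. It was 2.37-fold lower (adjusted p = 8.7e-07, limma), again without overlap.

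Fam120b, known as a coactivator of PPARγ, fell from 495, 531 and 547 normalized counts to 272, 285 and 297 in chow and from 527, 568 and 497 to 276, 308 and 300 in HFCF (adjusted p = 4.52e-06, limma). Ddx23, an RNA helicase of the U5 snRNP in the spliceosome, had 1168, 1093 and 1211 against 712, 670 and 696 in chow and 1092, 1256 and 1107 against 590, 590 and 591 in HFCF, a 1.80-fold fall. The membrane protein gene Tmem243 fell 1.85-fold. In each of these genes the lowest WT liver was above the highest liver labelled HuRHep-/- of its diet. The noncoding A430018G15Rik, which lies opposite Cacnb4 over 83.7% of its exons, fell from between 148 and 164 normalized counts in the WT livers of both diets to between 12.8 and 33.5 (log2 difference -2.87). Srcap, a chromatin remodelling ATPase, was 3.93-fold lower and its neighbour Tmem265 4.06-fold higher, but 61.7% and 100% of their exons are shared on the same strand with the readthrough gene Gm42715, and their counts are uncertain.

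**Figure D2:**
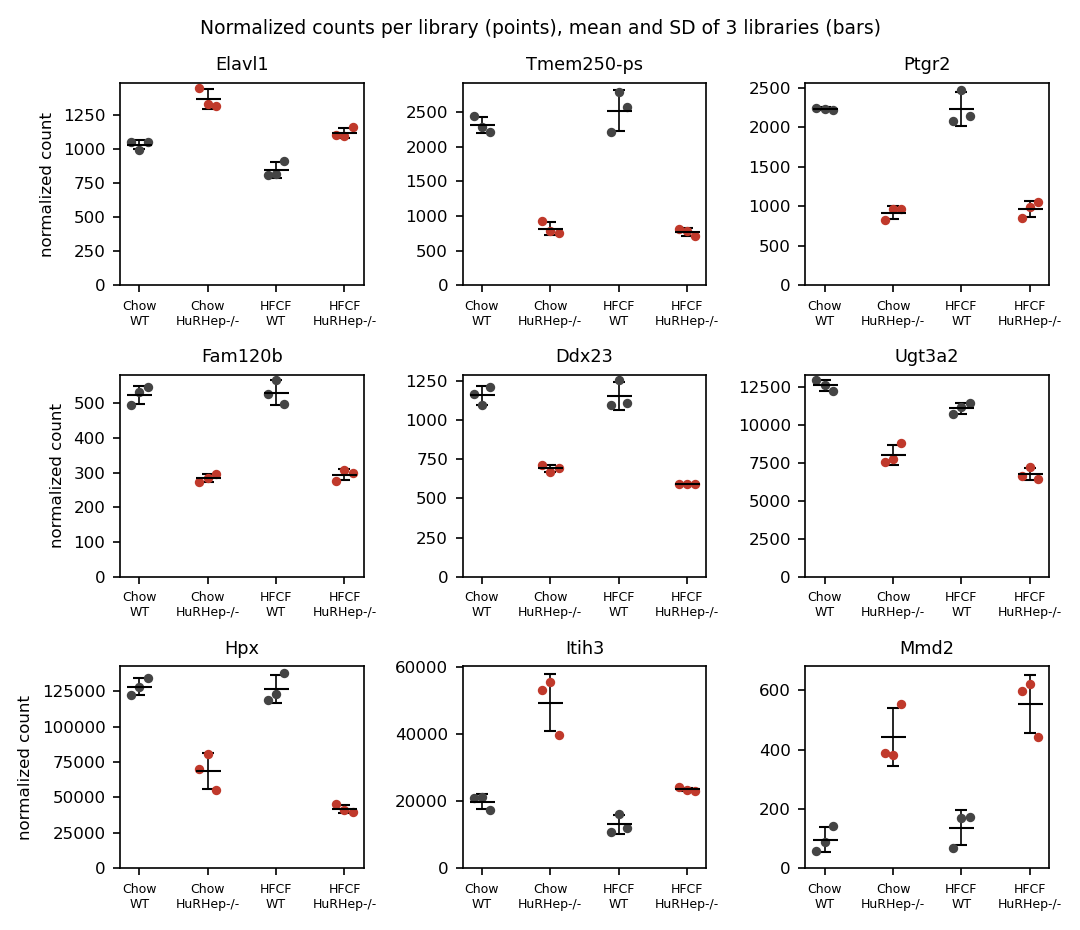
Normalized counts of 9 named genes in each of the 12 libraries (points, red for libraries labelled HuRHep-/-), with the mean and SD of the 3 libraries of each group as bars and every y axis starting at 0. Elavl1, Itih3 and Mmd2 were higher and the other 6 genes lower in the libraries labelled HuRHep-/- of both diets, without overlap.

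The largest rises are given next. Of the called genes that averaged at least 100 normalized counts and did not overlap in either diet, Lrtm2 rose most, from 2.24, 4.55 and 1.11 to 33.5, 17.9 and 23.0 normalized counts in chow and from 3.59, 3.12 and 90.8 to 628, 617 and 432 in HFCF. HFCF WT replicate 3 was far above the other WT livers. H19, an imprinted noncoding RNA that is abundant in fetal liver, had 3.36, 5.69 and 7.78 against 40.4, 25.3 and 8.37 in chow and 33.2, 10.4 and 77.8 against 853, 941 and 2096 in HFCF (log2 difference 3.57, standard error 0.68, adjusted p = 0.00454, limma). In chow alone it did not pass (adjusted p = 0.133, limma), and the genotypes were separated there by 7 against 8 raw reads in the nearest livers. The level was far higher under HFCF.

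Mmd2, a membrane protein of the progestin and adipoQ receptor family, differed by nearly the same amount in the diets, with log2 differences of 2.25 in chow and 2.10 in HFCF. Its normalized counts rose from 58.2, 89.9 and 142 to 387, 382 and 555 in chow and from 68.2, 170 and 173 to 598, 622 and 442 in HFCF. Enho, which encodes the secreted peptide adropin, had 690, 500 and 360 against 1511, 1830 and 1552 in chow and 40.4, 99.7 and 55.1 against 243, 292 and 257 in HFCF. It was 3.75-fold higher over both diets, although the HFCF livers of either genotype were below the chow livers.

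The other large rises were in Ttc39a (5.21-fold), in Lcn2, an iron-siderophore binding protein of the acute-phase response (a log2 difference of 2.32), in the actin-bundling gene Pls1 (4.09-fold), in the acute-phase gene Orm2 (3.42-fold), in the meiotic cohesin gene Rec8 (2.99-fold), in the hedgehog ligand Ihh (2.96-fold) and in the adhesion receptor gene Adgrv1 (2.90-fold). Of Orm2's sequence, 34.1% in words of 31 bases recurs in other transcripts, mainly Orm1.

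Among the largest falls was that of Cfd, which encodes the complement protease factor D and is also abundant in fat. It had 7.84, 30.7 and 44.5 against 3.94, 7.37 and 2.09 normalized counts in chow and 8856, 1659 and 2036 against 918, 866 and 1499 in HFCF. The nearest chow livers both had 7 raw reads, so that the genotypes there were separated by the scaling alone, and neither diet passed on its own (adjusted p = 0.108 in chow and 0.139 in HFCF, limma). The HFCF livers of either genotype were far above the chow livers. Hpx encodes hemopexin, the plasma protein that binds free heme, and is an abundant liver transcript. It had 122400, 127700 and 134500 against 69900, 80520 and 55420 in chow and 118700, 123300 and 137800 against 45040, 41400 and 39640 in HFCF. That was 2.38-fold lower (log2 difference -1.25, standard error 0.13, adjusted p = 0.00013, limma).

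Acot1, a cytosolic acyl-CoA thioesterase and known PPARα target, fell from 2296, 1287 and 2173 to 524, 825 and 811 in chow and from 2297, 2245 and 2427 to 655, 746 and 1572 in HFCF. Of Acot1's sequence 21.6% recurs elsewhere, mainly in Acot2. Slco1a1, an organic anion transporter, fell 3.05-fold, with log2 differences of -0.58 in chow and -2.66 in HFCF. Also lower were Serpina4-ps1 (3.39-fold), Mup-ps12 (3.58-fold), Dct (2.73-fold), the organic anion transporter gene Slc22a28 (2.61-fold), Cnmd (2.60-fold) and the ion channel gene Asic5 (2.40-fold). Mup-ps12 and Slc22a28 share 86.9% and 68.2% of their sequence words with relatives, so reads may have been split among them.

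Among the 32 pathway lists, UDP-glucuronosyltransferases (57.1%) and carboxylesterases (53.3%) had the largest shares of lower genes. Over all tested genes 9.34% were called lower and 8.23% higher. Of 15 carboxylesterase genes tested, 8 fell and 0 rose, with a median log2 difference of -0.54, which was -0.45 in chow and -0.46 in HFCF. Carboxylesterases hydrolyse drug and lipid esters. Ces3a fell from 74030, 72240 and 65640 normalized counts to 43370, 49140 and 52210 in chow and from 60240, 71670 and 48150 to 28840, 29360 and 31160 in HFCF, a 1.71-fold fall. Ces1e was 1.64-fold, Ces1b 1.77-fold and Ces2a 1.43-fold lower. Parts of Ces3a (42.6%), Ces2a (37.4%) and Ces1b (23.9%) recur in relatives. Of 14 UDP-glucuronosyltransferases, which attach glucuronic acid to drugs, bilirubin and steroids, 8 fell and 1 rose. Ugt3a2 had 12970, 12650 and 12230 against 7558, 7737 and 8783 in chow and 10690, 11170 and 11420 against 6633, 7239 and 6449 in HFCF (log2 difference -0.68, standard error 0.05, adjusted p = 9.89e-06, limma). Ugt3a1 fell 1.35-fold. Ugt1a1, the bilirubin enzyme, fell 1.60-fold and Ugt1a9 rose 2.41-fold, but these 2 genes share their last exons, so 58.9% and 59.9% of their exons overlap other genes of the locus.

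Of 46 cytochromes P450 of families 1 to 3, 10 fell (21.7%) and 4 rose. Cyp2e1, which oxidises ethanol and acetaminophen, ranged from 297000 to 325600 normalized counts in chow WT livers and from 216900 to 281600 in those labelled HuRHep-/-, and from 260800 to 297500 against 145800 to 200800 in HFCF. It fell 1.44-fold (adjusted p = 0.0161, limma). Cyp2j6 fell 1.34-fold and Cyp2d26 1.23-fold, and the log2 differences of Cyp2c50 and Cyp2d40 were -0.49 and -0.59, all without overlap in either diet. Of 28 alcohol, aldehyde and flavin oxidising enzymes 9 fell and 6 rose, whereas with library totals alone 2 fell and 7 rose. Aldh1a1, which makes retinoic acid, fell 1.42-fold and Aldh5a1 1.23-fold, while the mitochondrial Aldh1b1 rose 1.99-fold and Adh4 1.21-fold. Of 24 glutathione S-transferases 6 fell and 3 rose, but 1 rose without chow WT replicate 1, chow HuRHep-/- replicate 1, HFCF WT replicate 1 or 2, or HFCF HuRHep-/- replicate 1 or 3. Gstt1 fell 1.32-fold, Gstz1 1.23-fold and Gstk1 1.21-fold, and Gstt2 rose 1.45-fold. Gstm7 fell 1.32-fold over both diets, with log2 differences of -0.65 in chow and -0.16 in HFCF. The differences of Gsta1 (0.17), Gsta2 (-0.18), Gsta4 (-0.38) and Gstm6 (-0.32) did not pass the test over both diets. Their log2 differences in chow were -0.98, -1.02, -0.72 and -0.73, of which that of Gstm6 passed (adjusted p = 0.0428, limma), and in HFCF they were 1.30, 0.64, -0.06 and 0.08. Of 8 sulfotransferases 2 fell (Sult2a7 and Sult2a8), with log2 differences of -0.21 in chow and -2.06 in HFCF for Sult2a8, and 0 did without HFCF WT replicate 2 or HFCF HuRHep-/- replicate 1 or 3.

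Mitochondrial and peroxisomal fatty acid oxidation was the next group. Of 36 genes for fatty acid oxidation and ketogenesis, 13 fell (36.1%) and 1, Bdh1, rose, with 11 to 15 lower when any library was left out. Slc25a20, the carnitine-acylcarnitine carrier of the inner mitochondrial membrane, fell 1.47-fold, the isomerase Eci1 1.37-fold and Vnn1, a pantetheinase and PPARα target, 2.04-fold. When library totals alone were used, 8 of the 36 fell and 2 rose.

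Of 76 respiratory chain subunits 15 fell (19.7%) and 0 rose, none of them by 1.5-fold. Cox5b, a subunit of cytochrome c oxidase, had 6067, 5144 and 6238 against 3859, 3849 and 4687 in chow and 4800, 4815 and 4822 against 3643, 3856 and 3717 in HFCF, a 1.35-fold fall, but 32.6% of its sequence recurs in other transcripts. Ndufa7 (1.19-fold), Ndufab1 (1.20-fold) and Ndufv3 (1.15-fold), subunits of complex I, also fell. This count was not firm. It ranged from 4 (without chow WT replicate 1 or 3, or chow HuRHep-/- replicate 2) to 26 (without chow WT replicate 2), with GC and length trends removed it was 24, and with library totals alone 5 rose and 1 fell.

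Of 14 genes for mitochondrial fusion and fission 3 fell. These were Mief2 (1.36-fold) and Mief1 (1.33-fold), which recruit the fission enzyme to the outer membrane, and the fusion gene Mfn2 (1.17-fold, adjusted p = 0.0345, limma). Dnm1l (-0.08) and Opa1 (-0.02) gave log2 differences that did not pass. Of 20 genes of the NRF2 pathway and glutathione synthesis, 1 rose (5%) and 2 fell (10%), near the shares of all tested genes, 8.23% and 9.34%. With library totals alone 5 rose and 1 fell. Nfe2l2, which encodes NRF2, had 1719, 1618 and 1681 against 1905, 2121 and 1885 normalized counts in chow and 2254, 2018 and 2172 against 2608, 2632 and 2537 in HFCF, a 1.19-fold rise (adjusted p = 0.00298, limma). Catalase (Cat) fell 1.28-fold and Txnrd1 1.20-fold, and Gclc (-0.03) and Gclm (0.06), the subunits of glutamate-cysteine ligase, did not pass.

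Of 32 acute-phase genes 11 rose (34.4%), 3 fell, hemopexin among them, and 18 did not pass. In chow alone 8 rose and 1 fell, and in HFCF alone 1 rose and 2 fell. Over both diets 9 to 13 rose when any library was left out. The median log2 difference of the list was 0.11, against 0.0151 for all genes. Itih3, an inter-α-trypsin inhibitor heavy chain, rose from 21070, 21150 and 17450 to 53040, 55480 and 39640 in chow and from 10860, 16170 and 12150 to 24120, 23430 and 23050 in HFCF (log2 difference 1.09, standard error 0.12, adjusted p = 0.000181, limma). Itih4 rose 1.75-fold, Fgl1 2.17-fold and haptoglobin (Hp), the carrier of free hemoglobin, 1.63-fold, and the 4 genes did not overlap between genotypes in either diet. Of 16 genes for IL-6 and interleukin-1 signalling, the receptor subunit Il1rap fell 1.60-fold, the TNF receptor gene Tnfrsf1a rose 1.34-fold and the other 14 did not pass. These shares, 6.25% each, were not above those of all tested genes, 8.23% higher and 9.34% lower. With library totals alone 3 rose, 2 rose without chow WT replicate 2 or chow HuRHep-/- replicate 3, and 2 fell without chow HuRHep-/- replicate 3, HFCF WT replicate 1 or HFCF HuRHep-/- replicate 3. In the list of growth hormone receptor, JAK and STAT genes 3 of 16 rose, the cytokine-induced inhibitor Socs3 (1.96-fold), Stat3 (1.36-fold) and the phosphatase gene Ptpn1 (1.15-fold), and 1 fell, the receptor Ghr itself (1.26-fold). When single libraries were left out 1 to 2 of this list fell, and with GC and length trends removed 2 rose and 2 fell. Of 43 complement and coagulation factors 8 fell and 3 rose. Kng1, the kininogen gene, fell 1.26-fold, C1s1 1.24-fold, Masp2 1.21-fold and the prekallikrein gene Klkb1 1.36-fold, the last with 43.2% of its exons shared with Gm45753. With library totals alone the same list gave 9 rises and 7 falls.

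Of 21 genes of the unfolded protein and integrated stress response, 6 fell (28.6%), 1, Sesn2, rose and 14 did not pass. Pdia4, a disulfide isomerase, had 5004, 4896 and 5811 against 3106, 3147 and 2946 normalized counts in chow and 6322, 8009 and 6244 against 3924, 3876 and 2998 in HFCF, a 1.80-fold fall (adjusted p = 0.000102, limma). Hspa5, the lumenal HSP70 also called BiP, fell 1.46-fold, Manf 1.37-fold and Hyou1 1.44-fold. These counts were 6 to 7 lower when any library was left out.

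Of 24 cell cycle genes tested, 11 rose (45.8%) and 0 fell, each of the 11 by at least 1.5-fold, with a median log2 difference of 0.82 (0.46 in chow and 1.14 in HFCF). Mcm5, a subunit of the replicative helicase, had 35.8, 47.8 and 38.9 against 73.9, 79.0 and 64.9 normalized counts in chow and 96.9, 73.7 and 195 against 578, 283 and 332 in HFCF (log2 difference 1.29, standard error 0.26, adjusted p = 0.00627, limma). Mcm2 rose 1.93-fold and Mcm3 1.81-fold. Ccnd1, cyclin D1, had 355, 648 and 416 against 668, 771 and 751 in chow and 825, 491 and 1670 against 3532, 2670 and 2402 in HFCF, a 2.27-fold rise. Without HFCF HuRHep-/- replicate 1 or 2, 7 members rose, and in the single diets 0 (chow) and 1 (HFCF) passed by limma. Among 12 fetal liver genes, some of which are also in other lists, 5 rose and 0 fell, with a median log2 difference of 0.16 in chow and 1.06 in HFCF and 2 and 4 rises in the single diets. They were Lpl (2.64-fold), H19, Tff3 (4.30-fold, with values that overlapped in HFCF), Scd2 (1.65-fold) and Afp. Lipoprotein lipase (Lpl) had 738, 703 and 551 against 2546, 1613 and 1326 in chow and 1759, 656 and 1923 against 3766, 2948 and 3559 in HFCF. Without a library, 3 to 6 of these 12 rose, with 3 without chow WT replicate 1 or 3, chow HuRHep-/- replicate 1, HFCF WT replicate 2, or HFCF HuRHep-/- replicate 1 or 3. Among 17 p53 targets 1, Gtse1, rose (5.88%, against 8.23% of all tested genes). With voom weights 5 rose, with library totals alone 4 and with GC and length trends removed 3.

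Some markers of macrophages and of bile duct cells rose in the livers labelled HuRHep-/-, in tissue where more cells of a type and more RNA per cell cannot be told apart. Of 12 Kupffer cell markers 6 rose (50%), against 8.23% of all tested genes. All 12 were above 0 on the log2 scale, as were 52.7% of all tested genes. In chow alone and in HFCF alone 0 Kupffer markers passed by limma. The scavenger receptor gene Marco had 111, 193 and 148 against 239, 327 and 231 normalized counts in chow and 57.5, 86.2 and 86.4 against 400, 271 and 125 in HFCF (2.37-fold). Cd5l rose 1.58-fold, C1qb 1.49-fold and Clec4f, a lectin particular to these cells, 1.31-fold. Of 12 markers of recruited macrophages and monocytes 5 rose (41.7%), among them Lyz2 (1.47-fold), Cd9 (1.56-fold) and Trem2 (2.10-fold). Of these 12, 0 passed in chow alone and 1 in HFCF alone. The number that rose fell to 1 when single libraries were left out (Kupffer list without chow WT replicate 3, chow HuRHep-/- replicate 2, or HFCF WT or HuRHep-/- replicate 1). For the recruited list it fell to 1 without chow HuRHep-/- replicate 1, HFCF WT replicate 1 or HFCF HuRHep-/- replicate 3. Of 7 cholangiocyte markers tested 3 rose (Muc1, Cldn4 and Epcam, 42.9%), and 1 did without chow HuRHep-/- replicate 1 or without any HFCF library but WT replicate 2. In chow alone 0 of them passed, and in HFCF alone 4 were higher. Of 12 endothelial markers 1, Stab2, rose (8.33%), near the 8.23% of all tested genes. Among the fits that left out a library, that call was kept only without chow WT replicate 1 or HFCF WT replicate 3. It was lost with GC and length trends removed. Of 13 stellate cell, 13 lymphocyte, 4 neutrophil and 7 erythroid markers 0 passed by limma in either direction over both diets, and in HFCF alone 2 stellate cell markers were higher. At an unadjusted p under 0.05, 2 stellate cell, 3 lymphocyte, 2 neutrophil and 2 erythroid markers were higher, and voom weights called 1, a neutrophil marker. When single libraries were left out, up to 2 neutrophil, 1 lymphocyte, 1 stellate cell and 0 erythroid markers rose. Among 4 tested markers of pancreas, fat and gut, 1 fell, Cfd.

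Levels were also summed over each list in CPM (counts relative to the library total, without TMM factors). The TMM factors of HFCF livers were 0.974 to 1.054 (WT) and 1.106 to 1.135 (labelled HuRHep-/-), so scaling would lower the latter more. The part of scaling in the separations below was not tested. The Kupffer level was 205 to 276 CPM in chow WT livers and 275 to 438 in chow livers labelled HuRHep-/-. In HFCF it was 317 to 574 against 573 to 868, and the genotypes overlapped in both diets. The recruited macrophage level was 77.0 to 128 against 104 to 156 CPM in chow and 121 to 327 against 357 to 580 in HFCF. The cholangiocyte level overlapped in chow (31.6 to 75.1 against 44.3 to 77.0) and was 38.4 to 93.6 against 150 to 281 in HFCF. The cholangiocyte and recruited macrophage lists share the marker Spp1, so their sums are not separate. None of these markers was at 0 throughout a group except 1 cholangiocyte marker in chow WT livers. In HFCF the unscaled sums of 4 further lists did not overlap between genotypes. They were 307 to 628 against 648 to 791 CPM for stellate cell markers, 198 to 254 against 256 to 267 for endothelial markers, 7.58 to 8.99 against 11.9 to 14.2 for lymphocyte markers and 2.59 to 4.09 against 5.36 to 6.92 for neutrophil markers. In chow these 4 levels overlapped. Erythroid markers overlapped in both diets. The 10 hepatocyte markers tested had 0 calls by limma (3 were lower at an unadjusted p under 0.05, and voom weights called 1 higher and 3 lower), a median of -0.11 and a summed level of 110300 to 124900 against 100400 to 109500 CPM in chow and 89090 to 94070 against 91880 to 96650 in HFCF. The part of these cells in the rises of cell cycle, fetal liver and acute-phase genes was not tested.

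**Figure D3:**
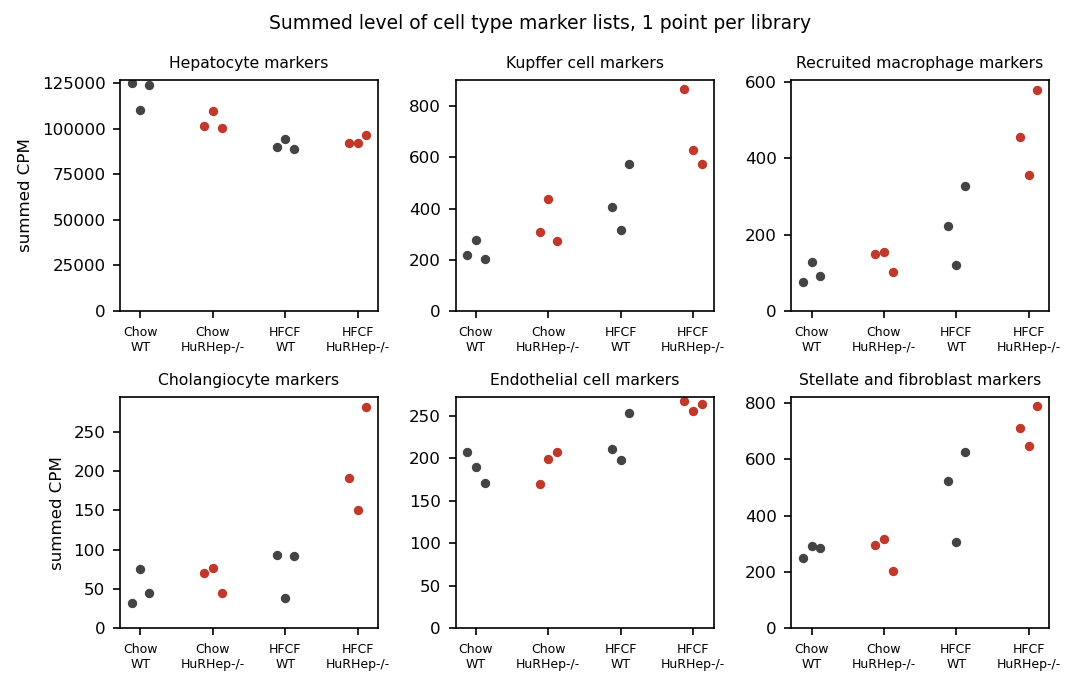
Summed CPM (relative to library totals, without TMM factors) of 6 marker lists, 1 point per library (red for libraries labelled HuRHep-/-), with every y axis starting at 0. Macrophage and bile duct lists were higher in HFCF livers labelled HuRHep-/- than in almost all others, and hepatocyte markers lay between 89090 and 124900 CPM throughout.

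Of 39 male-biased liver genes 12 fell (30.8%), 0 rose and 27 did not pass. In chow alone 1 rose and 0 fell, while in HFCF alone 15 fell and 0 rose. The list had a median log2 difference of -1.14 over both diets, but of -0.05 in chow and -2.13 in HFCF. Mup22, a major urinary protein, had 236100, 277800 and 201800 against 165700, 206600 and 229000 normalized counts in chow, where the genotypes overlapped, and 191600, 219400 and 131100 against 30960, 52240 and 34820 in HFCF. All of Mup22's sequence words recur in other Mup genes, as do those of Mup15. Mup15 held 26620 normalized counts in chow WT replicate 2 and 14780 in HFCF WT replicate 2, and was at 0 in all 3 HFCF livers labelled HuRHep-/-. Mup17, which shares 86.2% of its words with other Mup genes, had log2 differences of -0.94 in chow, where it did not pass, and -5.89 in HFCF. The complement gene C6 fell 1.98-fold, with log2 differences of -0.33 in chow and -1.65 in HFCF. The smallest adjusted p of the interaction in the list was that of Mup19, 0.0616. When single libraries were left out 3 to 15 of the 39 fell, fewest without HFCF WT replicate 1. Of 25 female-biased genes 2 rose and 2 fell (8% each), near the shares of all tested genes, 8.23% higher and 9.34% lower. When single libraries were left out 1 to 3 rose and 0 to 2 fell, with 0 falls without HFCF WT replicate 2 or HFCF HuRHep-/- replicate 1 or 3. The rises stayed at 2 or more only without chow WT replicate 3, chow HuRHep-/- replicate 3 or HFCF WT replicate 3. Cyp2a4 rose from between 7.96 and 37.8 to between 34.7 and 71.2 in chow and from between 14.5 and 293 to between 2758 and 5282 in HFCF, but shares 58.1% of its sequence with relatives, mainly Cyp2a5. Slc22a27 rose 3.10-fold.

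Lipid, sterol and bile acid genes followed. Of 28 genes of lipogenesis and lipid droplets, 4 fell (14.3%) and 2 rose (Scd2 and Fads2, 7.14%), against 9.34% and 8.23% of all tested genes. At most 1 rose when any library was left out and 0 rose with GC and length trends removed. With library totals alone 1 fell and 3 rose. G0s2, an inhibitor of the lipase ATGL, fell 1.86-fold and Scd1 1.90-fold, the latter with log2 differences of -1.60 in chow and -0.27 in HFCF. Dgat1 (1.14-fold) and Cideb (1.11-fold) fell slightly. The number that fell was 1 to 8 when any library was left out, with 1 without chow WT replicate 3 or chow HuRHep-/- replicate 2. Of 24 cholesterol genes Tm7sf2 (log2 difference -0.59) and Ebp (1.18-fold) fell and Mvk rose 1.32-fold. These shares (8.33% lower, 4.17% higher) were not above those of all tested genes, 9.34% and 8.23%. With library totals alone 1 fell and 4 rose, and with GC and length trends removed 0 rose. When single libraries were left out 1 to 3 fell, and a rise was kept only without chow WT replicate 2, HFCF WT replicate 1 or 2, or HFCF HuRHep-/- replicate 3. Of 18 bile acid synthesis genes 3 fell, Slc27a5 (1.31-fold), Cyp27a1 (1.37-fold) and Baat (1.19-fold), and Amacr rose 1.17-fold. With library totals alone 2 fell and 4 rose, with GC and length trends removed 0 rose, and without 1 library a rise was kept only without chow WT replicate 2, HFCF WT replicate 2 or HFCF HuRHep-/- replicate 1. Of 16 bile acid and sterol transporters 5 fell and 2 rose. The canalicular export pump Abcb11 had 13080, 11020 and 11480 against 11200, 9489 and 9501 in chow and 8248, 9658 and 7907 against 6324, 6806 and 5148 in HFCF, a 1.29-fold fall. Abcg2 fell 1.18-fold, and Slco1a4 rose 1.75-fold. Of the 16, 1 fell without HFCF WT replicate 1, 1 rose without chow WT replicate 1 or 3, chow HuRHep-/- replicate 1 or 2, HFCF WT replicate 1 or 2, or HFCF HuRHep-/- replicate 1, and with library totals alone 2 fell and 2 rose.

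Of 27 hepatocyte transcription factors and nuclear receptors 5 fell and 0 rose, whereas with library totals alone 1 fell and 3 rose. Without HFCF WT replicate 2, 2 rose. Onecut2 (1.18-fold), the glucocorticoid receptor gene Nr3c1 (1.13-fold) and Thrb (1.16-fold) were among those that fell. Of 19 clock genes 3 fell, among them Cry1 (1.80-fold) and Nfil3 (1.46-fold). Of 24 metallothionein and zinc transporter genes 4 rose and 3 fell, with 8 and 1 under library totals alone and 2 rises without HFCF HuRHep-/- replicate 2 or 3. Mt2 rose 4.42-fold with overlapping values in HFCF, Slc39a4 1.45-fold, and Slc30a5 (1.24-fold) and Slc39a9 (1.14-fold) fell. Of 19 iron genes 2 rose (Hp and Lcn2) and 2 fell (Hpx and Tfr2, the latter 1.19-fold), 10.5% each, and of 31 urea cycle and amino acid genes 3 rose and 3 fell (9.68% each). These shares were near those of all tested genes, and with library totals alone the 2 lists gave 5 and 7 rises and 1 fall each. When single libraries were left out, 1 to 3 of the iron genes fell, fewest without chow WT or HuRHep-/- replicate 3, HFCF WT replicate 1 or any HFCF HuRHep-/- library. Of the urea cycle and amino acid genes 2 to 7 rose, fewest without chow or HFCF HuRHep-/- replicate 1 or 2. Among these Gpt rose 1.27-fold, glutamine synthetase (Glul) 1.49-fold, Bckdhb fell 1.18-fold and Oat 1.61-fold.

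Genes for RNA-binding and ribosomal proteins were read against the shares of all tested genes, 8.23% higher and 9.34% lower. Of 20 AU-rich element binding proteins only Elavl1 rose and only Tial1 fell (1.21-fold), while with library totals alone 6 rose and 1 fell. Of 66 splicing factors 7 fell (10.6%) and 5 rose (7.58%), near those shares (18 rose and 2 fell with library totals alone). Srsf9 had 746, 690 and 709 against 440, 496 and 455 normalized counts in chow and 679, 719 and 672 against 431, 417 and 487 in HFCF, a 1.55-fold fall (adjusted p = 4.12e-05, limma). Hnrnph3 fell 1.45-fold and Hnrnpu 1.18-fold, and Sf3b3 rose 1.19-fold. Of 78 cytosolic ribosomal protein genes 1 fell, Rps12, whose values scattered from 10.5 to 618 and whose adjusted p was 0.0497 by limma. When single libraries were left out 0 to 2 of these genes fell, and with library totals alone 3 rose and 0 fell. Several short counts rested on few livers. Without HFCF HuRHep-/- replicate 1 or 3, 1 of the growth hormone receptor list rose. Of the cytochromes P450, 2 rose without chow HuRHep-/- replicate 1 or 2, HFCF WT replicate 1 or HFCF HuRHep-/- replicate 2. Of the complement and coagulation factors, 1 rose without chow WT replicate 1 or 3 or chow HuRHep-/- replicate 1 or 2. Without chow WT replicate 1 or chow HuRHep-/- replicate 1, 3 of the hepatocyte transcription factors fell. Without chow HuRHep-/- replicate 2 or HFCF WT replicate 1, 2 of the splicing factors rose and 5 fell, and 2 also rose without HFCF HuRHep-/- replicate 1 or 3.

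**Figure D4:**
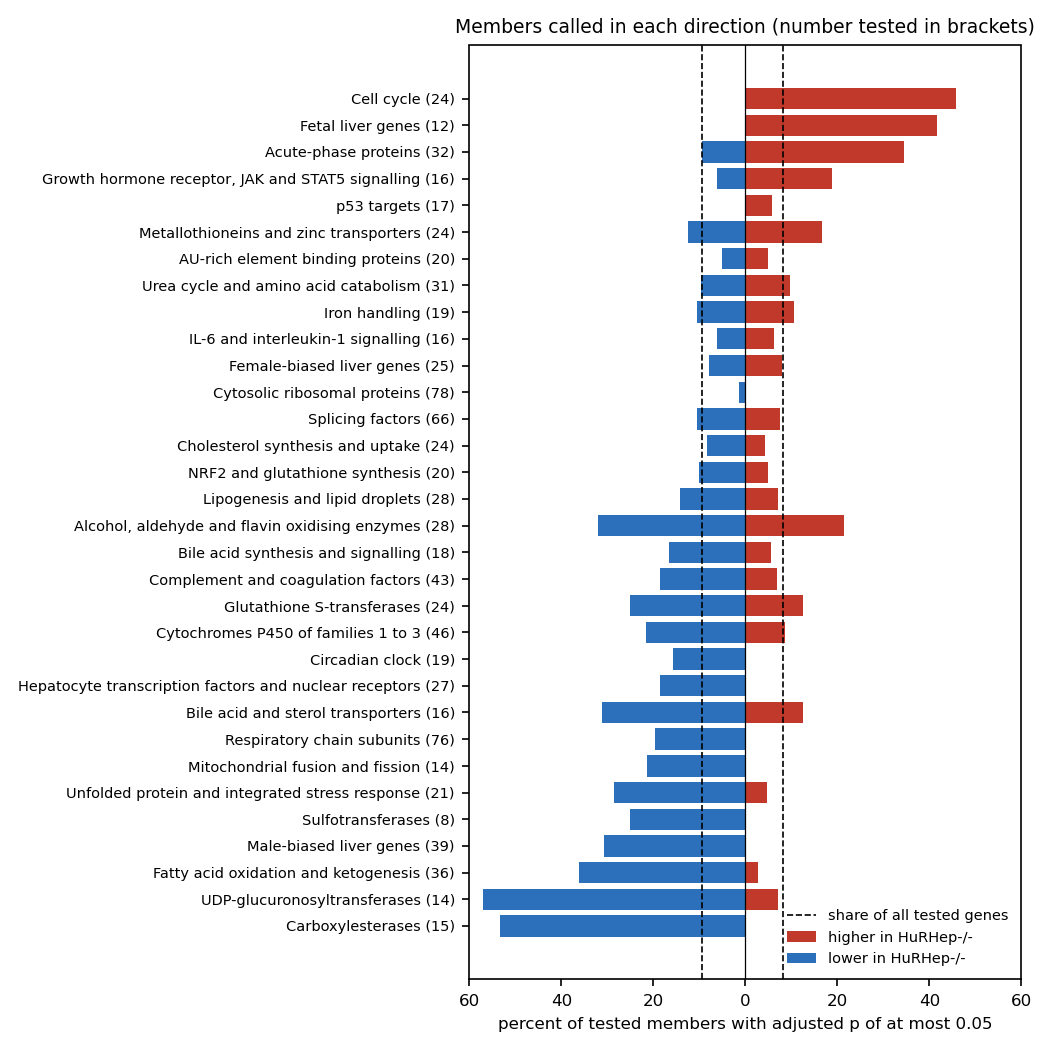
Percent of the tested members of each of 32 gene lists that were called higher (red, right) or lower (blue, left) in livers labelled HuRHep-/-, with the number tested in brackets. The dashed lines mark the shares among all tested genes, 8.23% higher and 9.34% lower, and cell cycle genes reach 45.8% on the right and UDP-glucuronosyltransferases 57.1% on the left.

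Pooling the diets brought in genes that neither diet showed alone. Of the 742 DEGs, 116 were also called in both single-diet fits, 101 in chow only, 183 in HFCF only and 342 in neither, where "only" says which threshold was passed and not that the diets differ. Genes with the smallest p-values among the 342 are named here, predicted genes left out. Oat, the mitochondrial ornithine aminotransferase, had 21850, 22480 and 27720 against 14070, 13450 and 19080 normalized counts in chow and 19820, 33780 and 24970 against 16230, 14060 and 15560 in HFCF. Tmprss4, a membrane serine protease, rose from 3.36, 2.28 and 4.45 to 9.86, 11.6 and 15.7 in chow and from 8.98, 10.4 and 22.7 to 53.4, 29.97 and 42.1 in HFCF. Cage1 fell 5.57-fold. Vps37d (2.50-fold), the flippase gene Atp8b4 (1.70-fold) and the histone genes Hist2h2be (1.86-fold) and Hist1h4h (1.98-fold) rose. Of the sequence words of Hist1h4h, 50.0% recur in other histone genes.

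The 2553 called genes also differed in sequence features that the comparison did not use. Annotated 3′ UTRs were available for 1142 of the 1196 higher and 1266 of the 1357 lower genes, and for 13339 of the 14535 tested. Their median A and U content was 52.9% in higher genes, 57.7% in lower genes and 55.5% in all tested genes. The pentamer ATTTA occurred 1.54 times per kilobase of 3′ UTR in higher, 2.06 times in lower and 1.80 times in all tested genes, overlaps counted and on the transcript strand only. The nonamer shown above for 5 genes was present in 6.30% of higher, 8.06% of lower and 7.78% of all tested 3′ UTRs, but among DEGs in 5.69% of higher and 4.95% of lower ones. Median 3′ UTR length was 912 bases in higher genes and 1114 bases both in lower genes and in all tested genes. Within 3′ UTRs of 1000 to 2000 bases, ATTTA occurred 1.48 times per kilobase in higher and 2.07 times in lower genes, and within those under 500 bases 1.75 and 1.64 times. The nonamer was present in 7.97% of higher and 6.88% of lower 3′ UTRs of 1000 to 2000 bases, so its order was not the same in every set.

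The whole transcripts differed in the same sense, with a median GC content of 52.6% in higher, 48.0% in lower and 50.2% in all tested genes. Across the 14512 genes with a transcript, the log2 difference correlated with GC content at r = 0.121, where genes share the 12 libraries. After trends on GC content and length were removed from each library, 1051 genes were higher and 1485 lower. Of those, the 3′ UTRs held 1.69 and 1.88 ATTTA per kilobase and had a median A and U content of 54.7% and 55.7%. The part of base composition in these differences was not tested further. DEGs lay on every chromosome with at least 355 tested genes, from 2.25% of tested genes on chromosome 18 to 6.51% on chromosome 3, and 441 of the 484 higher and 202 of the 258 lower DEGs were protein-coding.

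**Figure D5:**
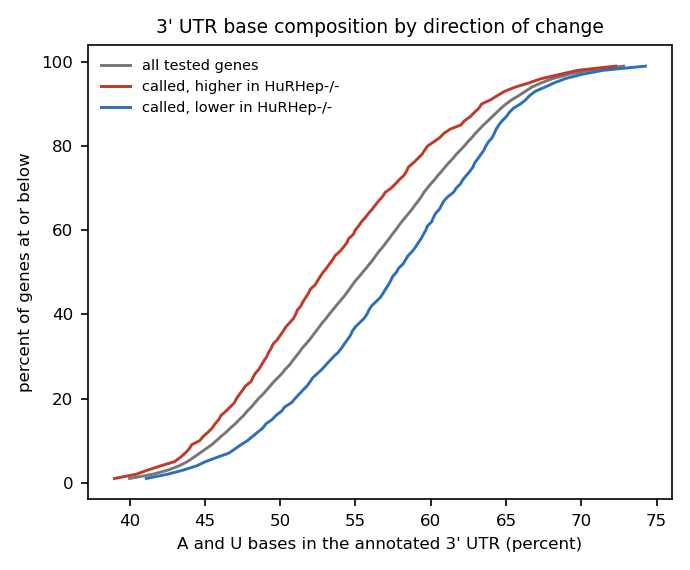
Cumulative percent of genes (y axis) by the percent of A and U bases in their annotated 3′ UTR (x axis) for all tested genes (grey), genes higher (red) and genes lower (blue) in livers labelled HuRHep-/-. The blue curve lies to the right of the grey and the red curve to its left, with medians of 57.7%, 55.5% and 52.9%.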

How the data were processed

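The authors made libraries from liver RNA of the 12 mice with a stranded kit and mapped reads to GRCm38.p6 with the CLC Genomics Workbench. They deposited whole-number read counts per gene, without normalization, in 1 table per diet. The values are text with comma separators, so their unit was recorded as other, and limma on log2 values was used in place of a count test.

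Tables were joined on the gene identifier. Groups follow the labels. TMM factors were computed here, counts were turned into log2 CPM with a pseudocount of 0.5, and a linear model with diet and genotype was fitted (limma 3.58.1 in R 4.3.3, variance trend, Benjamini-Hochberg adjustment). A gene was tested if at least 3 libraries reached the CPM that 10 counts have at median depth, with 15 or more counts over all libraries. Single-diet fits and a genotype by diet interaction used the same steps. The fit was tested on simulated data. P-values measure the spread between mice, with 6 per genotype. For genes with few reads, such as H19 and Lrtm2 in chow WT livers, counting error is about as large as that spread.

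Genes were named by a rule: Elavl1, 12 genes the study discusses, the 12 largest rises and falls among DEGs averaging at least 100 normalized counts without overlap, the 8 smallest p-values, up to 4 called genes per list, the 5 smallest interaction p-values, the 8 smallest p-values among DEGs called in neither diet alone, and markers. Some genes that the rule names are not reported here. Bdh1, Sesn2, Fads2, Afp, Gtse1, Muc1, Cldn4, Epcam and Sult2a7 were named after their values were seen. The 32 pathway lists and 10 cell type lists, and the comparison itself, were chosen with earlier results of these data known. Alternatives were other factors, filters, a pseudocount of 2, weights, a replicate block, single diets, a test against 1.5-fold and leaving out each library. Removing GC and length trends was added after seeing the data. Positions, 3′ UTRs and shared words of 31 bases come from GENCODE M21 (3′ UTRs of at least 20 bases in the longest coding transcript).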

Additional observations from a re-analysis of the deposited data

Results flagged for a closer look

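Of the 162 genes named by the rule, 3 had genotype groups that did not overlap in either diet but moved in opposite directions. All 3 were named for their small interaction p-values, so their number follows from that choice. Over all tested genes 178 (1.22%) had this pattern. For Dio1, which activates thyroid hormone, normalized counts were 3430, 3828 and 3497 (WT) against 5332, 6125 and 7638 (labelled HuRHep-/-) in chow, and 5467, 5698 and 5575 against 4623, 4760 and 3736 in HFCF, an interaction of -1.17 on the log2 scale (adjusted p = 0.0616, limma). Gm49388 had an interaction of -11.82 (adjusted p = 0.0616, limma), a value that depends on the pseudocount because all 3 chow WT livers and 2 HFCF livers labelled HuRHep-/- were at 0. All of its exons lie within Hsd3b7 and Setd1a on the same strand, so its counts are uncertain. Cap2 had an interaction of 6.43 (adjusted p = 0.0616, limma), with normalized counts of 11.5 to 15.3 in HFCF livers labelled HuRHep-/- and of 0 to 1.14 in all other livers, a value that also depends on the pseudocount.

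Among 324 sets of 6 values of 1 genotype, each centred within its diet, 1 held a value far from the rest. This was Gm49388 in HFCF WT replicate 3, where the gap to the next value took 0.629 of the range, just over Dixon's limit. Centring ties the values of a diet together, so Dixon's limit for 6 independent values is hardly ever reached. The check can therefore miss outlying livers, and few flags do not show that there were none.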

How the results depend on the processing

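The total numbers of called genes and of DEGs, both directions together, kept their size within 1.5 times under other factors, filters, a pseudocount of 2, voom or library weights, and removal of GC and length trends, but with library totals alone 2703 genes were higher and 617 lower. The 148 named called genes other than Elavl1 gave 0 reversals over all alternatives. They lost the call in 20 of 148 values with library totals alone, in 176 of 1776 values without 1 library and in 46 of 1469 values under the other alternatives apart from single diets and the 1.5-fold test. Leaving out 1 library gave 1761 to 2741 genes at the adjusted p threshold and 554 to 969 DEGs, and 250 of the higher and 161 of the lower DEGs were kept in every such fit. The interaction count was 1 with voom and ranged from 0 to 41 without 1 library.

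A test against 1.5-fold left 27 DEGs, 2 list members and 9 named genes. In chow alone 557 genes, 317 DEGs, 66 list members (227 pooled) and 60 named genes (149 pooled, Elavl1 included) passed, and in HFCF alone 958 genes, 104 list members and 71 named genes. With 6 in place of 12 libraries these fits have fewer mice.

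Genes that had not passed changed sign in several fits. With library totals alone Dnm1l was 0.03, Opa1 0.09 and Gclc 0.08, and with library weights Gsta1 was -0.01. In chow alone Gsta1 was -0.98, Opa1 0.13 and Gclc 0.05, and in HFCF alone Gsta2 was 0.64, Gstm6 0.08 and Gclm -0.05. Without 1 library Gsta1 ranged from -0.32 to 0.44, Gsta2 from -0.37 to 0.02, Opa1 from -0.06 to 0.01 and Gclc from -0.09 to 0.02.

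Replicate numbers were shared by the genotypes within a diet. The deviations of same-numbered livers correlated at -0.0299, 0.107 and -0.00305 in chow and 0.088, 0.19 and 0.086 in HFCF, so they were not taken as pairs. In HFCF, but not in chow, every liver correlated best with its own number. With the replicate block 1022 genes were higher and 1145 lower, and Elavl1 was 0.40 (adjusted p = 0.00189, limma).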
